A study of Mus musculus with 4 samples.

Results

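The genes described here are 10 members of the tumour necrosis factor (TNF) superfamily, 5 ligands (Tnf, Ltb, Tnfsf4, Tnfsf9 and Tnfsf13b) and 5 receptors (Tnfrsf1a, Tnfrsf1b, Tnfrsf4, Tnfrsf9 and Tnfrsf11a). They were taken by name, and every probe set that the platform annotation assigns to exactly 1 of them was kept, which gave 14 of the 22626 probe sets on the array. A probe set is a group of short probes against a single transcript region, and its MAS5 signal is an intensity in arbitrary units. Tnfrsf9 had 3 probe sets, Tnfrsf1b and Tnfrsf11a had 2 each and the other genes had 1.

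The series holds 4 arrays of primary Langerhans cells sorted from mice to a stated purity of 95%. Langerhans cells are dendritic cells that reside in the epidermis and present antigen. TCDD 1 and TCDD 2 came from mice given 10 µg of TCDD (2,3,7,8-tetrachlorodibenzo-p-dioxin, a ligand of the aryl hydrocarbon receptor) in oil, control 1 from mice given DMSO and olive oil, and control 2 from mice called a control experiment. The intraperitoneal route is named for TCDD 2 and control 2, and all cells were isolated 24 h after treatment. TCDD 2 and control 2 were labelled as back skin and TCDD 1 and control 1 name no site, and the controls carry different experiment dates, so skin site and experiment cannot be told apart. Such a pair of arrays is called a preparation, either back skin or unnamed site. The treatment protocol of control 2 names TCDD but the title and description, which call it a control, were followed. No label states the strain, age, sex or number of mice behind an array, so the spread between arrays may be technical.

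Ligands of this family are trimers, mostly held in the membrane of the cell that makes them, and they cluster their receptors on the neighbouring cell. Receptors with a death domain, such as Tnfrsf1a, recruit Tradd and can lead to NF-kB activation or to cell death, whereas receptors without one bind TRAF adaptors directly. In skin, TNF is known as a signal that sets Langerhans cells migrating to the lymph node, and the ligands Tnfsf4 and Tnfsf9 give costimulation to T cells that carry Tnfrsf4 and Tnfrsf9.

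TCDD acts through the aryl hydrocarbon receptor, whose DNA sites share the core GCGTG, so the 250 bases before each RefSeq gene start (GRCm38.p6) were searched for it on both strands. Of the 10 genes, 8 had 10 promoters in that table, and the core was found in 2 of the 10 promoters, against 28.2% of 32851 mouse promoters. They are shown with the core in capitals, the promoter of Tnfrsf11a at chr1:105780473-105780722 on the plus strand and that of Tnfrsf1b at chr4:145246871-145247120 on the minus strand, each written 5′ to 3′ along its gene.
Tnfrsf11a: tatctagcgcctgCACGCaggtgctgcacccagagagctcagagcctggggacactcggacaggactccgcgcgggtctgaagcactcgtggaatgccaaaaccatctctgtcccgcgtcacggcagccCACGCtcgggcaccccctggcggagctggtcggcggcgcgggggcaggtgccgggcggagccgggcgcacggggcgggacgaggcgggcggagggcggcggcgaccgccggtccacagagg
Tnfrsf1b: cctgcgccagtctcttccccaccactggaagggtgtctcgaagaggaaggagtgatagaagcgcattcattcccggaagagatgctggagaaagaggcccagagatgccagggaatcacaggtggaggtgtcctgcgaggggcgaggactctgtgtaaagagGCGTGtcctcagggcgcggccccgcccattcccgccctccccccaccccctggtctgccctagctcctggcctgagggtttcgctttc
In Tnfrsf11a the core lay on the opposite strand, 237 to 233 and 121 to 117 bases before the start, and in Tnfrsf1b on the gene's own strand, 88 to 84 bases before it. Such a match is a description of the letters in this window.

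Tnfrsf9 is shown because it had the brightest of the member probe sets, probe sets whose patterns differed, and 2 RefSeq starts, 7844 bases apart. Capitals mark the NF-kB type motif GGGNNNNNCC, searched on both strands, which 45.8% of all promoters and 6 of the 10 member promoters held. The upstream promoter (chr4:150919905-150920154, plus strand) held no match and the downstream one (chr4:150927749-150927998, plus strand) held 3 overlapping matches between 43 and 33 bases before the start.
Tnfrsf9 upstream start: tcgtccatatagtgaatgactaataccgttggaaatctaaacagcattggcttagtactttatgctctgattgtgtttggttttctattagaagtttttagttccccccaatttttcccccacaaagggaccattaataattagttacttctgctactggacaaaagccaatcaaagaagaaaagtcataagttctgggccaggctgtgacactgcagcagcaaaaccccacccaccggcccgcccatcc
Tnfrsf9 downstream start: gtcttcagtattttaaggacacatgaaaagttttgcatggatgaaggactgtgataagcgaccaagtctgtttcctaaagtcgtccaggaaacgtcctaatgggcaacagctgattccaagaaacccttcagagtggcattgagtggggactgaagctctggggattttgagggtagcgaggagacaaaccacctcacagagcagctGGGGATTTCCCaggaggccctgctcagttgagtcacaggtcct
Which start the array's probe sets report was not tested.

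The arrays had a common trimmed mean signal of 500 and median signals of 180.8 and 172.8 on TCDD 1 and 2 and 164.9 and 188.1 on controls 1 and 2. The arrays differed in the 3′ to 5′ signal ratio of the actin control probe sets. It was 3.48 and 7.71 on TCDD 1 and 2, against 49.7 and 4.64 on controls 1 and 2. The same ratio of the Gapdh control probe sets was 9.55 and 15.9 on TCDD 1 and 2 and 107 and 11.9 on controls 1 and 2, above that of actin on every array. Whether RNA quality or amplification lay behind this was not tested. The summed signal of 10 Langerhans cell markers was 41646 and 42681 after TCDD and 37758 and 53226 in controls, and they did not vary together. Langerin (Cd207), 1 of these markers, read 5343.3 and 2154.7 after TCDD and 2119.9 and 7210.5 in controls. Without overlap between the groups, 1 of the 10 was higher after TCDD (Cd24a, 1861.6 and 2180.2 against 1329.9 and 1629.3) and 3 were lower: Csf1r (8468.6 and 9376.0 against 11347.5 and 11698.8), the adhesion molecule Epcam (7540.8 and 8362.1 against 8717.0 and 10032.1) and Itgax (169.6 and 115.3 against 185.4 and 230.7). Over all genes by their brightest tested probe set, 11.4% were higher and 14.1% lower without overlap. None of the 10 markers passed the test described below. The antigen presentation genes H2-Aa and Cd74 were lowest on control 1. Markers of T cells had a summed signal over 11 of 12 genes of 2509 and 1875 on the TCDD arrays and 1782 and 3379 on the control arrays, and 8 of the 11 were higher on TCDD 1 and control 2 than on both other arrays. The exceptions were Cd247, Cd28 and Zap70, the brightest of the list, which read 856.7 and 947.6 after TCDD and 875.4 and 759.4 in controls. Higher signals on TCDD 1 and control 2 were not limited to T cell markers. They were also found for 10 of 27 genes of other organs, the yardstick described below. Of the 10 Langerhans cell markers 2 had them, Cd207 among these. This pair of arrays was picked after the values were seen, and its share over all tested probe sets was not counted. Cd3e read 386.9 and 112.7 against 197.5 and 471.3, and Cd3d, listed at 18.1 and 6.4 against 5.9 and 36.0, was low throughout. Since T cells also make Tnfrsf4, Tnfrsf9 and Ltb, these values stand beside the results on those genes, and their part in them was not tested. In such bulk samples, fewer cells of a type and less RNA per cell cannot be told apart. The summed signals of other lists spanned 1042 and 1235 after TCDD and 1002 and 1002 in controls for 9 of 10 keratinocyte markers, 1373 and 1323 against 1417 and 1706 for 6 of 7 melanocyte markers, and 1208 and 1439 against 1095 and 1324 for 10 of 11 mast cell, granulocyte and monocyte markers. They were 466 and 446 against 435 and 344 for 5 of 6 B cell markers and 1176 and 1024 against 1137 and 1385 for 9 fibroblast and endothelial markers. None of these markers was listed at 0.

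Receptors gave signals clear of the low end of the array, and most ligands did not. No detection calls are available here, so 45 probe sets of 27 genes of other organs (albumin, insulin, rod and cone pigments and the like) served as a yardstick; their 90th percentile was 252.1 and 179.4 on TCDD 1 and 2 and 157.2 and 222.4 on controls 1 and 2, and their highest signal 388.5. Of the 9 receptor probe sets, 6 lay above every one of those 45 on all 4 arrays. Of the 5 ligand probe sets, none did so on any array, and Tnfsf4 alone was above the 90th percentile on all 4. Signals of different probe sets do not rank the genes by amount of RNA, since each probe set has its own response.

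**Figure D1:**
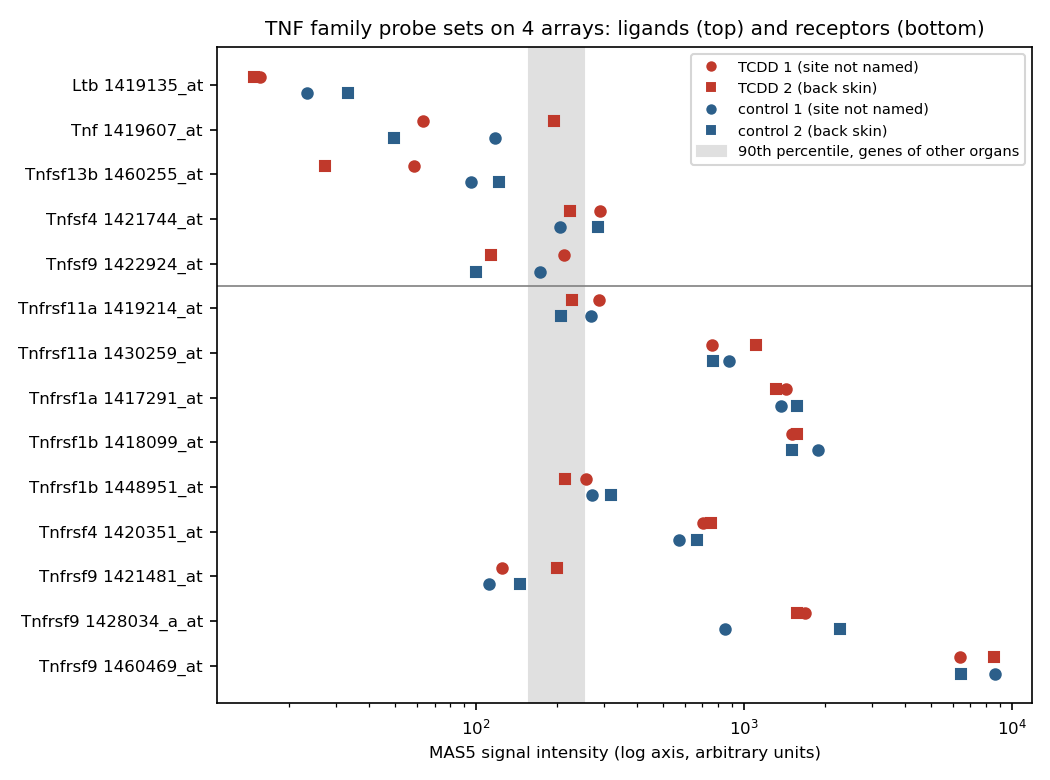
MAS5 signal intensity (log axis, arbitrary units) of the 14 probe sets, ligands above the line and receptors below it, with TCDD arrays in red and control arrays in blue, circles for the unnamed site and squares for back skin. The grey band spans the 90th percentiles of probe sets of other organs, from 157.2 to 252.1; Tnfrsf9 1460469_at, between 6390.4 and 8642.0, lies farthest to the right and Ltb, between 14.9 and 33.2, farthest to the left.

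TCDD moved none of the tested members past the threshold: 0 of 11 probe sets had an adjusted p under 0.05 (limma on all 13576 probe sets above a filter at the 40th percentile of mean log2 signal, Benjamini-Hochberg; adjusted p = 0.9999 for each), which was also the result for the whole array (0 of 13576, 0%). Before adjustment, a p under 0.05 was reached by 0 of the 11 and by 199 on the whole array. Without control 2 these counts were 1 (Tnfrsf9 1428034_a_at) and 1602, and without control 1 they were 0 and 787. The log2 differences of TCDD minus control ran between -0.32 and 0.31 with a median of 0.11, against a median of -0.01 over all tested probe sets. In absolute size their median was 0.16, against 0.20 over all. The 95% intervals reached down to -1.13 and up to 1.29, and for 6 of the 11 they lay within 2-fold in either direction. With 2 arrays per group an exact permutation test cannot go below a two-sided p of 0.333.

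**Figure D2:**
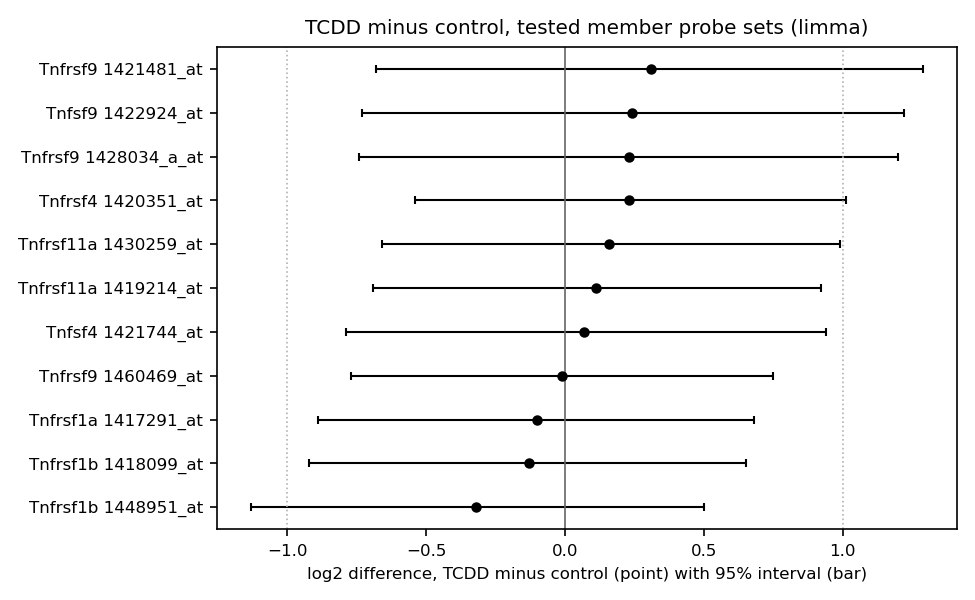
Log2 difference of TCDD minus control (points) with its 95% interval (bars) for the 11 tested probe sets, from limma with treatment and preparation as terms (n = 2 arrays per group); dotted lines mark 2-fold. All intervals include 0, and the widest upward reach is that of Tnfrsf9 1421481_at, to 1.29.

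The brighter probe sets of the receptors for TNF itself gave close values on all arrays. Tnfrsf1a, the death domain receptor found on most cells, read 1434.6 and 1312.5 on TCDD 1 and 2 and 1373.3 and 1582.4 on controls 1 and 2, so the groups overlapped and the highest array was 1.21 times the lowest. Its log2 difference was -0.10 ± 0.34 (SE, n = 2 per group), with a 95% interval from -0.89 to 0.68. Tnfrsf1b, the receptor of leukocytes and endothelium that binds membrane TNF well, read 1508.0 and 1574.2 after TCDD and 1885.5 and 1514.7 in controls by the probe set 1418099_at, where 3 arrays lay close together and control 1 above them (-0.13 ± 0.34). Without control 1 that difference was 0.02. Its dimmer probe set 1448951_at read 257.9 and 215.0 after TCDD against 269.9 and 318.1 in controls, a difference of -0.32 ± 0.36 with no overlap between the groups. In the whole array, 13.2% of tested probe sets were lower after TCDD without overlap and 12.4% higher, together 25.6%, against 1 and 1 of the 11 here.

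Tnfrsf4 (OX40), a costimulatory receptor best known on activated T cells, was the probe set with higher values after TCDD on every array. It read 702.0 and 753.0 after TCDD and 573.4 and 667.5 in controls. The log2 difference was 0.23 ± 0.34, with ratios of 0.29 in the unnamed-site preparation and 0.17 in back skin, and it did not pass the test (limma, adjusted p = 0.9999). With each array left out in turn, the difference of Tnfrsf4 lay between 0.12 and 0.34. The sign could not turn there, since the groups did not overlap. Its ligand Tnfsf4 (OX40L), made by activated antigen-presenting cells, read 289.4 and 225.1 after TCDD and 206.1 and 285.9 in controls. Here TCDD 1 and control 2 were the higher arrays, as for Cd3e and for Cd207. The difference was 0.07 ± 0.38, and it was -0.16 without control 1 and -0.11 without TCDD 1.

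Tnfrsf9 (4-1BB or CD137), a costimulatory receptor induced on activated T cells and also found on dendritic cells, gave 3 different patterns by its 3 probe sets. The probe set 1460469_at, at or above the 98.0th percentile of signals on every array, read 6390.4 and 8555.1 on TCDD 1 and 2 and 8642.0 and 6439.6 on controls 1 and 2. TCDD 2 and control 1 were thus nearly equal and high, and TCDD 1 and control 2 nearly equal and low, with a group difference of -0.01 ± 0.33 that was 0.20 without TCDD 1 or without control 1. By 1428034_a_at the gene read 1694.8 and 1577.3 after TCDD against 851.0 and 2289.0 in controls. Control 1 was the lowest array there and control 2 the highest, so both TCDD arrays lay between the controls (0.23 ± 0.43). The third, 1421481_at, read 124.8 and 200.6 after TCDD and 112.1 and 146.3 in controls, under the 90th percentile of the genes of other organs on all arrays but TCDD 2 (0.31 ± 0.43, and -0.04 without TCDD 2).

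The value of 1428034_a_at depended on which control was used. Its log2 difference was -0.49 without control 1 and 0.94 without control 2, and its ratios of TCDD to control were 0.99 in the unnamed-site preparation and -0.54 in back skin. None of these fits gave an adjusted p under 0.05 (limma; the smallest was 0.182, without control 2). Control 1 had the actin 3′ to 5′ ratio of 49.7, against 3.48 to 7.71 on the others. The arrays with high 1460469_at, TCDD 2 and control 1, had actin ratios of 7.71 and 49.7 and the Cd3e values 112.7 and 197.5. Those with low signal, TCDD 1 and control 2, had 3.48 and 4.64 and 386.9 and 471.3. Of 11 T cell markers, 8 were higher on TCDD 1 and control 2, as Cd3e was, and 10 of 27 genes of other organs were too. The share over the whole array was not counted. Langerin (Cd207) was also higher there, at 5343.3 and 7210.5 against 2154.7 and 2119.9. The brightest T cell marker, Zap70, was not, at 856.7 and 759.4 against 947.6 and 875.4. The part of RNA quality, of amplification or of T cells in these patterns was not tested.

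**Figure D3:**
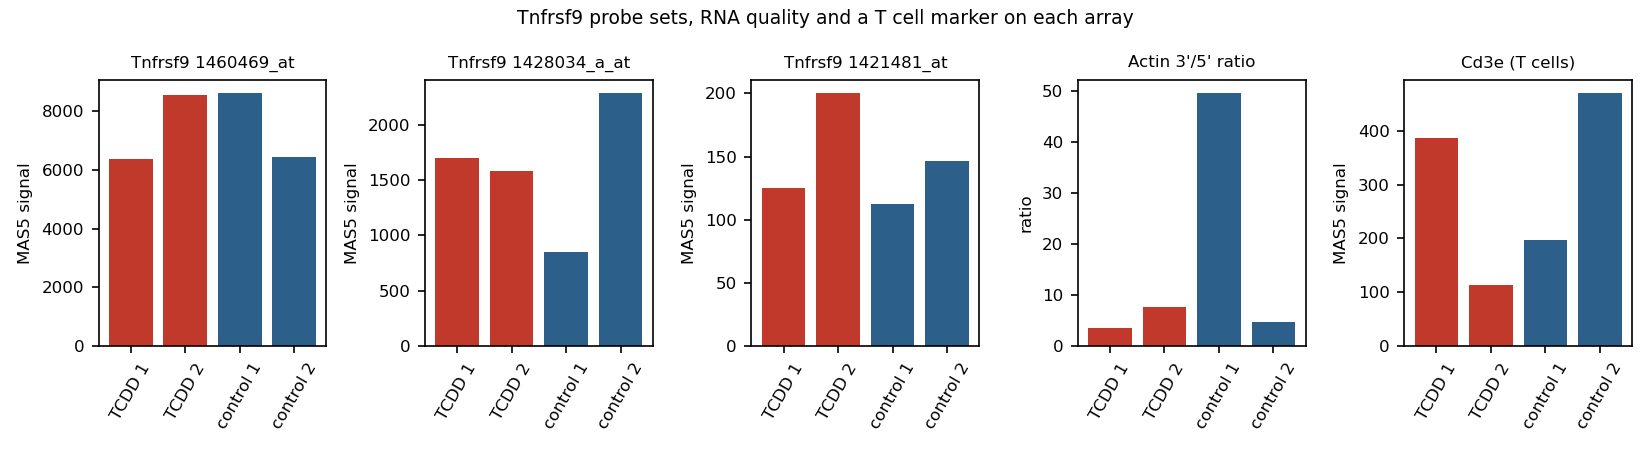
Signals of the 3 Tnfrsf9 probe sets, the actin 3′ to 5′ signal ratio and the signal of the T cell marker Cd3e on each array (bars from 0, 1 array each, TCDD in red and control in blue). TCDD 2 and control 1 are the high arrays for 1460469_at at 8555.1 and 8642.0, control 1 is the low array for 1428034_a_at at 851.0 and has the highest actin ratio, 49.7.

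The ligand of that receptor, Tnfsf9 (4-1BBL), made by activated antigen-presenting cells, read 212.9 and 113.8 after TCDD and 173.6 and 99.6 in controls. The groups overlapped, and within each preparation the TCDD array was slightly higher, with log2 ratios of 0.29 and 0.19 (0.24 ± 0.43). Without TCDD 1 the sign turned (-0.21), as it did without control 2 (-0.16), in fits that carry no preparation term.

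Tnfrsf11a (RANK), the receptor for the survival factor Tnfsf11 (RANKL), is known to help maintain Langerhans cells, which meet RANKL on keratinocytes. Its probe set 1430259_at read 760.9 and 1106.6 after TCDD and 877.2 and 764.8 in controls, with TCDD 2 the highest array (0.16 ± 0.36). The dimmer 1419214_at read 287.6 and 227.4 after TCDD and 268.3 and 208.3 in controls (0.11 ± 0.35), where the arrays of a preparation were closer to each other than those of a treatment. Leaving out TCDD 2 gave -0.11 for 1430259_at, and leaving out TCDD 1 or control 2 gave -0.06 or -0.07 for 1419214_at.

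The other 3 ligands lay under the filter, a geometric mean signal of 115, and were not tested. Tnf, the founding cytokine of the family, read 63.6 and 194.9 after TCDD and 118.1 and 49.4 in controls. TCDD 2 was the highest array and control 2 the lowest, so that the log2 ratio of TCDD to control was -0.89 in the unnamed-site preparation and 1.98 in back skin. Only the 194.9 exceeded the 90th percentile of the genes of other organs on its array. Tnfsf13b (BAFF), a survival factor for B cells made by myeloid cells, read 58.7 and 27.2 after TCDD and 95.7 and 121.5 in controls. The groups did not overlap and the log2 difference was -1.43, but every value lay under that 90th percentile, and in the fit with no filter the unadjusted p was 0.0769 (limma, adjusted p = 1). Ltb, the membrane anchor of lymphotoxin heterotrimers, read 15.6 and 14.9 after TCDD and 23.4 and 33.2 in controls, below the median of the genes of other organs on all 4 arrays. Its log2 difference of -0.87 became 0.00 with signals under 50 set to 50.

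**Figure D4:**
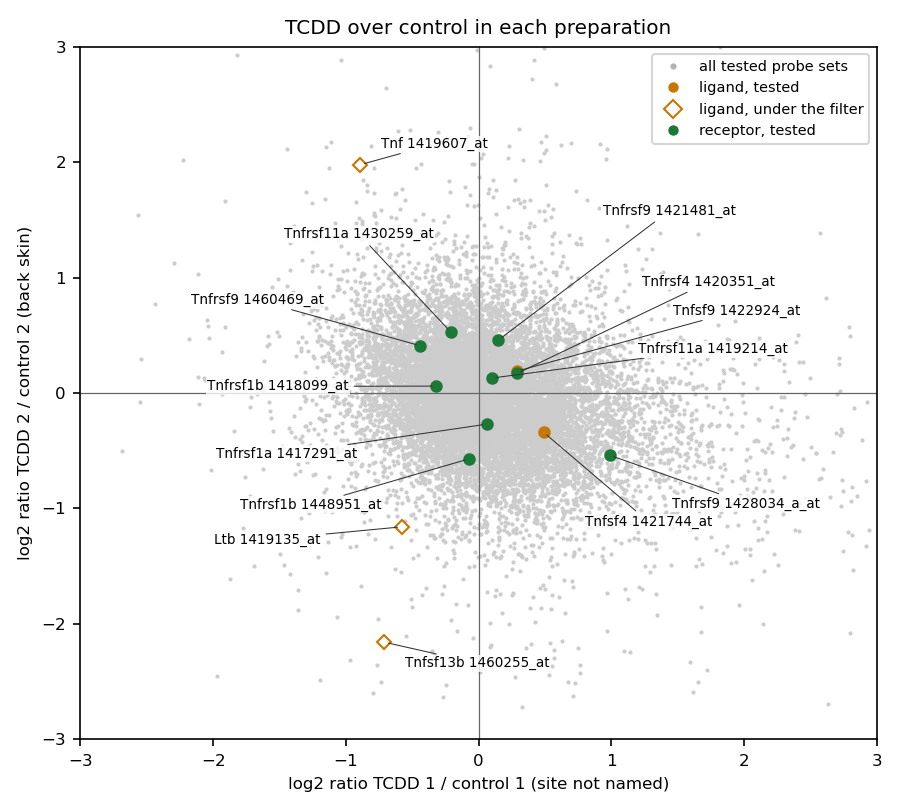
Log2 ratio of TCDD to control in the unnamed-site preparation (horizontal) and in back skin (vertical), 1 array over 1 array each, for the 14 member probe sets and all tested probe sets (grey; 40 of 13576 lie outside the axes). Tnf sits at -0.89 and 1.98 and Tnfrsf9 1428034_a_at at 0.99 and -0.54, on opposite sides of 0, and Tnfsf13b at -0.71 and -2.16.

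Over the 11 tested probe sets, 4 had a higher TCDD array in both preparations (Tnfrsf4, Tnfsf9, Tnfrsf11a 1419214_at and Tnfrsf9 1421481_at), 1 a lower one in both (Tnfrsf1b 1448951_at) and 6 went opposite ways. These ratios rest on 1 array per treatment and preparation and carry no test.

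Between the preparations, 0 of 11 member probe sets passed the test (limma, adjusted p at least 0.9994), as did 0 of 13576 probe sets (0%); before adjustment a p under 0.05 was reached by 0 and 274, and by 1 and 1511 without TCDD 1. Tnfsf9 had the largest difference among the members: it read 113.8 and 99.6 in back skin against 212.9 and 173.6 in the unnamed-site preparation. The groups did not overlap, and the log2 difference of back skin minus the other preparation was -0.85 ± 0.43 (95% interval from -1.83 to 0.12, unadjusted p = 0.0789 in limma). It was -0.90 on the TCDD arrays and -0.80 on the control arrays. For Tnfrsf9 the difference was 0.66 ± 0.43 by 1428034_a_at and 0.53 ± 0.43 by 1421481_at, and for Tnfrsf11a -0.35 ± 0.35 by 1419214_at. The value of 1428034_a_at was 0.16 without control 1 and 1.16 without TCDD 1. Without overlap, 1 of the 11 was higher in back skin and 2 were lower, against 16.1% and 15.9% of all tested probe sets, together 32.1%. The other 7 had log2 differences between -0.13 and 0.17.

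Relatives of these genes gave the same count of calls. A gene stands here by its brightest tested probe set, as do 8413 genes of the whole array, of which 0 (0%) passed, 11.4% were higher after TCDD without overlap and 14.1% lower. Of 13 other ligands 9 had a probe set and 3 were tested, with 0 past the test in either direction and a median log2 difference of -0.15. Tnfsf11 (RANKL), the ligand of Tnfrsf11a, read 451.0 and 229.0 after TCDD and 185.9 and 246.1 in controls, a difference of 0.59 ± 0.42 that was 0.10 without TCDD 1, the high array. Eda, the ligand of hair and gland development, differed by -0.28 ± 0.41, and Tnfsf8, the ligand of CD30, by -0.15 ± 0.45.

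Of 23 other receptors 20 had a probe set and 9 were tested, with 0 past the test and a median of -0.11; 2 were higher after TCDD without overlap and 2 lower. Tnfrsf11b (osteoprotegerin), the soluble decoy that binds RANKL in place of Tnfrsf11a, read 759.6 and 556.1 after TCDD and 306.6 and 395.1 in controls. Both TCDD arrays exceeded both controls, and the log2 difference was 0.90 ± 0.36 (95% interval from 0.08 to 1.73, unadjusted p = 0.0358, adjusted p = 0.9999 in limma). It was named for having the largest difference in its list. Of 9 tested genes of other organs, 2 were higher after TCDD without overlap and 3 lower, and Gfap among them differed by 1.18 ± 0.48. With each array left out the difference of Tnfrsf11b lay between 0.68 and 1.13. The sign could not turn there, since the groups did not overlap. Its other probe set, at 23.4 and 23.6 after TCDD and 19.5 and 67.3 in controls, lay under the filter. Tnfrsf13b, a receptor for BAFF, differed by 0.24 ± 0.38 and Tnfrsf8 (CD30) by -0.23 ± 0.44.

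Cd40, the receptor through which T cells license dendritic cells, read 10680.7 and 12957.1 after TCDD and 13991.7 and 13428.0 in controls (-0.22 ± 0.29). Its second probe set, 1460415_a_at, was added after its values were seen and read 2004.7 and 2040.2 after TCDD and 655.0 and 1989.4 in controls. Control 1 alone was low there, as it was for Tnfrsf9 1428034_a_at, and the difference was 0.83 ± 0.43, opposite in sign to that of the brighter probe set.

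**Figure D5:**
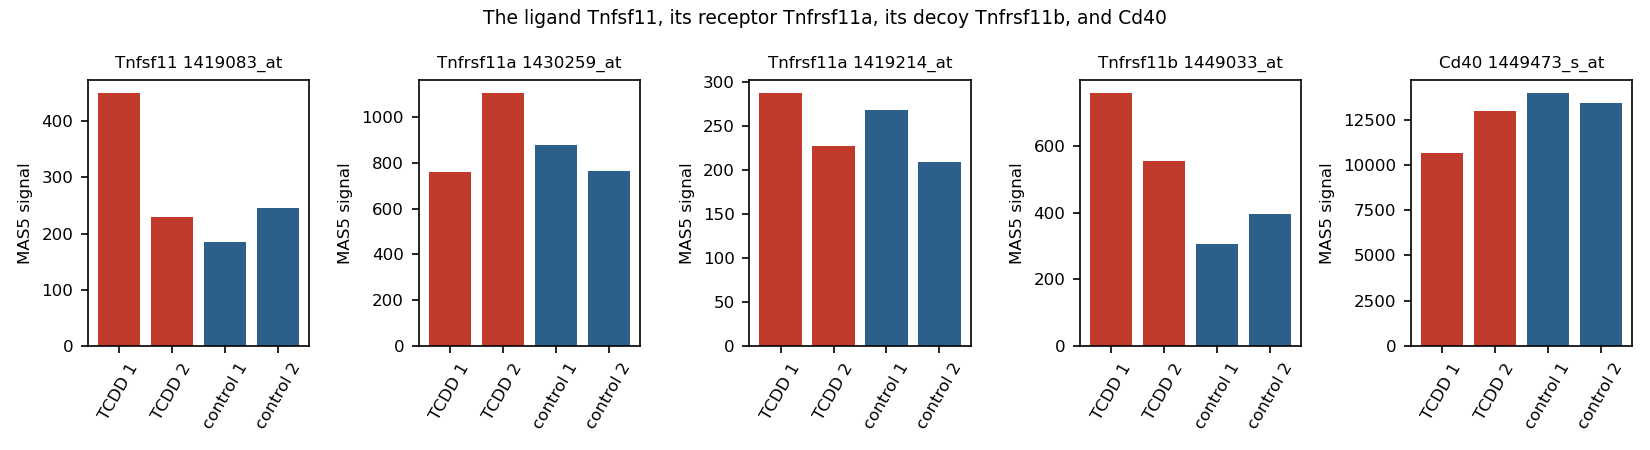
Signals of Tnfsf11, both Tnfrsf11a probe sets, Tnfrsf11b and the brightest Cd40 probe set on each array (bars from 0, 1 array each, TCDD in red and control in blue). Tnfrsf11b stands at 759.6 and 556.1 on the TCDD arrays, above 306.6 and 395.1 on the controls, while Tnfsf11 is high on TCDD 1 alone.

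Downstream of the receptors, 21 of 26 adaptors, kinases and regulators had a tested probe set, 0 passed in either direction and the median was -0.16, against -0.03 over all genes; 1 was higher and 3 were lower after TCDD without overlap. Sharpin, a subunit of the linear ubiquitin ligase of the TNF receptor complex, differed by -0.42 ± 0.37, Tnip1, a partner of the inhibitor Tnfaip3, by -0.40 ± 0.34, Ikbkg, the regulatory subunit of the IkB kinase, by -0.38 ± 0.37, and Casp8, the initiator caspase of death receptors, by -0.31 ± 0.34. Other tested probe sets gave 0.17 and -0.19 for Ikbkg and 0.05 for Sharpin. With 1 array left out, the difference was between -0.72 and -0.12 for Sharpin, between -0.66 and -0.14 for Tnip1 and between -0.53 and -0.10 for Casp8. Without control 1 that of Sharpin was -0.12, and without TCDD 1 that of Tnip1 was -0.14. The groups of Tnip1 did not overlap, so the sign of its difference could not turn. Control 1 was the highest array for Sharpin, at 1108.6 against 607.0 and 746.2 after TCDD and 729.0 in control 2, and for Ikbkg, at 1152.1 against 641.3 to 660.7.

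Of 5 genes of ligand and receptor shedding 4 were tested, 0 passed and the median was -0.07. Adam17, the protease that releases TNF and its receptors, differed by -0.44 ± 0.35 by its brightest probe set, where control 1 was the highest array at 958.4 (-0.06 without it and -0.82 without control 2), and by 0.53 ± 0.37 and 0.40 ± 0.48 by others. The related protease Adam10 differed by -0.06 ± 0.34, Rhbdf1, a pseudoprotease partner of Adam17, by 0.10 ± 0.34, and Timp3, the inhibitor of Adam17, by -0.09 ± 0.43.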

How the data were processed

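RNA of 4 sorted Langerhans cell samples was amplified, labelled with biotin and hybridised to 1-colour Affymetrix arrays, per the labels' protocols. The deposited intensity values are MAS5 signals on a linear scale; affy and MAS5 stand in the submitters' processing notes without a version. Leaving out 2% of probe sets at either end, the mean was the same in all 4 columns, so the arrays had been scaled by the authors. Amplification from the 3′ end makes a signal depend on the probe set's distance from that end. Samples were grouped by title and description.

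Of 22690 probe sets, 64 controls of the array were left out. Gene names come from the platform annotation: 20380 probe sets had 1 symbol, 691 several and 1555 none. Signals were taken to log2 without further normalization and tested with limma 3.58.1 in R 4.3.3 (treatment and preparation as terms, eBayes with a mean-variance trend, 1 residual degree of freedom, Benjamini-Hochberg) on the 13576 probe sets with a mean log2 signal of at least 6.85, the 40th percentile. Precision is limited by the number of arrays, with a median standard error of 0.364 on the log2 scale. The fit was also run on simulated arrays with independent normal noise and no preparation effect. Since these arrays differ from that setting, the run does not show how the fit performs on them. The pairing check gave a Pearson's r of -0.18 across probe sets between the preparation ratios of the TCDD and the control arrays. These ratios thus did not tend to go the same way in both treatments, and the pairing rests on the labels alone. Members and gene lists were chosen with earlier results of these data known. All member probe sets are named; of each other TNF list the 4 genes with the largest absolute TCDD difference, and for the preparations the 4 largest member differences. Lists are described without a set test. Alternative settings were quantile normalization, centring on the median, no filter or one at the 60th percentile, a floor or an offset of 50, no variance trend, no preparation term and each array left out.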

Additional observations from a re-analysis of the deposited data

How the results depend on the processing

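In all 8 alternatives that used every array, the 11 tested member probe sets kept an adjusted p above 0.05. Their TCDD differences also kept their sign there. These were 85 values in all, since the stricter filter left 8 of the 11. Changing the filter, the variance trend or the preparation term could not alter a difference in this balanced design. Nor could the floor, which lay under every tested member signal. For those alternatives the kept sign is no evidence of stability, and only the adjusted p was open to change. Only quantile normalization, centring and the offset could move the difference itself. With no replicate block (no preparation term) 0 of 11 passed and 0 of 13576, as with it, and that fit changed no member call. Leaving out 1 array, in fits without the preparation term that assume a lone array varies like the others, gave 0 member calls in each fit but turned 12 of 44 signs, in 8 probe sets. The ranges were -0.29 to 0.02 for Tnfrsf1b 1418099_at, -0.07 to 0.30 for Tnfrsf11a 1419214_at, -0.11 to 0.43 for Tnfrsf11a 1430259_at, -0.16 to 0.31 for Tnfsf4, -0.21 to 0.70 for Tnfsf9, and for Tnfrsf9 -0.04 to 0.65 by 1421481_at, -0.49 to 0.94 by 1428034_a_at and -0.23 to 0.20 by 1460469_at. Among relatives they were -0.70 to 0.14 for Eda, -0.42 to 0.12 for Tnfsf8, -0.81 to 0.04 for Ikbkg, -0.12 to 0.32 for Rhbdf1, -0.42 to 0.24 for Timp3 and -0.34 to 0.23 for Adam10. The cause was not tested.

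Over the whole array the TCDD count was 0 in the fit with all arrays and between 0 and 285 with 1 array left out: 12 when control 1 and 285 when control 2, whose labels conflict, was left out. Crossing the pairs (TCDD 1 with control 2, TCDD 2 with control 1), an alternative chosen after seeing the data, called 10 probe sets, of which 0 were members. The preparation count was between 0 and 89, and 89 was reached without TCDD 1. Leaving out control 2 made control 1 the only control, and leaving out TCDD 1 made control 1 the only unnamed-site array. Control 1 had the actin 3′ to 5′ ratio of 49.7, against 3.48 to 7.71 on the others. The counts of 285 and 89 thus rest on that array and are no evidence of a response to TCDD or to skin site. Whether the RNA of control 1 or the labels of control 2 lay behind them was not tested. For the untested ligands the TCDD difference with 1 array left out was -1.12 to -0.62 for Ltb, -0.26 to 1.35 for Tnf and -1.99 to -0.88 for Tnfsf13b. The groups of Ltb and Tnfsf13b did not overlap, so their signs could not turn in those fits. An offset of 50 brought Ltb to -0.26 and Tnfsf13b to -0.79. Signals near those of genes of other organs limit what can be said of the ligands.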
